A study of Mus musculus with 4 samples.

Results

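The 9 genes described here encode enzymes of heme synthesis (Alas1, Alad, Uros, Urod, Cpox, Ppox and Fech) and carriers that move or export porphyrins (Abcb6 and Abcg2). They were taken by name as the pathway that the treatment feeds. Their measured values did not enter that rule, but earlier results of these data were known when they were chosen. All 9 were on the array, read by 12 of its 41174 probes, and they were 9 of the 16862 named genes that the arrays read once outlier spots were left out. Alas1, Fech and Abcg2 had 2 probes each and the others had 1. The study measured total RNA of mouse skin in 4 groups with 3 animals per group by design. Tail control and back control skin had no treatment, per the labels. Tail treated and back treated skin received methyl aminolevulinate as a cream, 2.5 h of darkness and red light at 636 nm. The light dose was 10 J/cm2 for tails and 2.5 J/cm2 for backs, which had been shaved, and RNA was measured at 48 h. Whether control backs were shaved is not stated in the labels used here. There was 1 single-colour array per group, and the labels do not say if RNA of several animals was combined on it. Differences between arrays therefore have no replicate check, and no p-value is given. The layer taken is uncertain for the tail, which the sample titles call skin and the extraction protocol epidermis.

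Heme is built in a relay between mitochondria and cytosol. The mitochondrial synthase Alas1 makes 5-aminolevulinate and is the step that sets the pace in most tissues, where heme represses it. Cytosolic enzymes build aminolevulinate into a porphyrin ring and trim its side chains, and mitochondrial enzymes then oxidise the ring to protoporphyrin IX, into which ferrochelatase inserts iron. Methyl aminolevulinate enters after the Alas1 step, so that protoporphyrin IX, which turns light into reactive oxygen, can build up faster than iron is inserted. The pump Abcg2 carries protoporphyrin IX out of cells.

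The largest differences between treated and control skin were those of the export pump Abcg2 and then of Alas1, the entry enzyme. Alas1 was lower in treated skin of both sites by both of its probes. Abcg2 was lower in treated tail and higher in treated back skin, again by both probes. The other enzymes differed less after treatment, and Urod in the back was the only 2-fold difference among them. At 1.25 it was near Alas1 in size, which was at -1.41 there. Fech, the last enzyme, differed mainly between untreated skins.

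Values are the log2 spot intensity of the scanner's processed signal minus the log2 of the 75th percentile of each array, and the calls used below begin at a 2-fold difference, which is 1 on this scale. That percentile ran from 909 on the tail treated to 7261 on the tail control array. Each member probe was 1 spot per array, and the scanner error of a difference between arrays was 0.20 to 0.21. This error covers the spot and not the animals. In the 3015 genes with 2 probes measured on both tail arrays, the differences of a gene's probes lay a median of 0.51 apart, against 0.29 in the back. All 12 member probes were well above background and unsaturated on all arrays, with processed signals from 114 to 48167. In a bulk sample, fewer cells of a type and less RNA per cell cannot be told apart. All 7 basal and all 5 suprabasal keratinocyte markers on the array were well above background in every group, which fits the labelled skin.

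**Figure D1:**
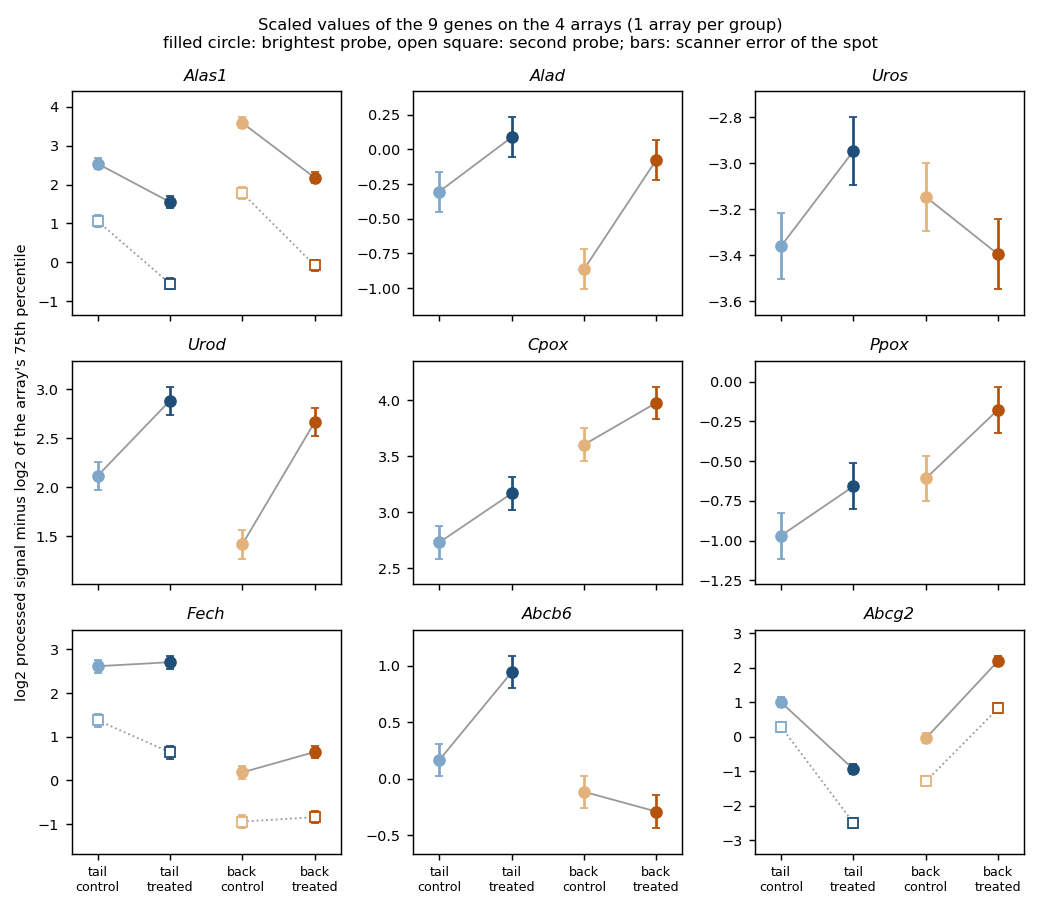
Scaled values of the 9 genes, with the 4 arrays on the x axis and the log2 processed signal minus the log2 of the array's 75th percentile on the y axis, each panel on its own scale. Circles are the brightest probe and squares the second probe, bars are the scanner error of the spot, and lines join control and treated skin of a site. Both Alas1 probes slope down in both skins, and both Abcg2 probes slope down in the tail and up in the back.

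Alas1, the entry enzyme, was lower after treatment in both skins. The scaled values of its brighter probe were 2.54 in tail control, 1.55 in tail treated, 3.59 in back control and 2.18 in back treated skin. Those of its second probe were 1.06, -0.55, 1.78 and -0.074 in the same order. By either probe the back control array was the highest and the tail treated array the lowest. In the tail the brighter probe differed by -0.99, just inside the 2-fold threshold, and the second probe by -1.61. In the back the differences were -1.41 and -1.86, or 2.66-fold and 3.62-fold lower. Lower calls in both skins occurred in 1.1% of the 11281 genes measured on all arrays, counted by the brightest probe of each gene. Alas1 had such calls by its second probe only, and the share among second probes was not counted. Of all genes with a value, 6.70% had a lower difference than the brighter probe in the tail and 6.92% in the back. Among the 12 member probes, the Alas1 pair were the only ones below 0 in both responses. The tail value of the brighter probe was -1.61 after cyclic loess, a correction for differences that depend on brightness, and -1.54 with normexp background correction, and 4 of the 8 other settings run for this probe placed it past 2-fold. The second probe was past 2-fold in the tail under all 8 settings, and both probes were so in the back under all 8. Neutrophil markers moved the other way at the same time, since 5 of 5 with a value were higher in treated tail and 4 of 5 in treated back skin, with 3 bounds in each. Their summed signal was 8.56 in tail control, 144 in tail treated, 42.6 in back control and 109 in back treated skin. Almost all of each sum came from S100a8 and S100a9, which were saturated on both treated arrays. S100a9 was also saturated on the back control array. The sums thus depend on saturation and scaling, and give no size for a change in neutrophils. Elane, Mpo and Retnlg were also higher in treated tail skin, while Csf3r and Ngp were not well above background on either tail array. Other markers were lower in treated back skin, as Alas1 was, with 5 of 7 hair shaft, 3 of 4 T cell and 2 of 2 suprabasal keratinocyte markers that had a value, where 12.6% of all genes were lower. In the tail only 2 hair shaft, 4 T cell and 1 suprabasal keratinocyte marker had a value, and none had a lower call. The other hair shaft and suprabasal markers on the array were saturated on both tail arrays. The part of any of these cells in the Alas1 values was not tested.

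RefSeq annotates 2 starts of Alas1, 224 bases apart, and which transcripts each probe reads was not analysed here. The 250 bases before the outer start are shown because this gene was the member that was lower in both skins. They lie at chr9:106247955-106248204 on the minus strand of GRCm38.p6, and capitals mark the match to the GC box GGGCGG, here on the other strand. The short stretches at chr9:106247940-106247959 and chr9:106247911-106247930, also on the minus strand, lie 224 and 195 bases before the inner start, and their capitals mark matches to the site of NRF1, a factor known for genes of mitochondrial function.
Alas1 outer start: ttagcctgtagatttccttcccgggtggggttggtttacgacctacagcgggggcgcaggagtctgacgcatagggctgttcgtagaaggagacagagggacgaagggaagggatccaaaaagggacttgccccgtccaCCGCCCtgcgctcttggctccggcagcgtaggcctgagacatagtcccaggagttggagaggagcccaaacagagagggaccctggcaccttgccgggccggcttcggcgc
Alas1 NRF1 match, farther: ggcgcGCGCGTGCGCgcggc
Alas1 NRF1 match, nearer: ccaagGCGCATGCGCggcgg
The NRF1 core, matched as in the capitals with any base allowed at 1 position, occurred in 3.74% of the 32851 windows of 250 bases in the RefSeq promoter table, searched on both strands, and GGGCGG in 32.7%. Among the other members it stood before Uros, 47 bases from its start. A match describes letters only. The NRF1 transcript itself differed by -0.12 in the tail and -0.011 in the back by its brighter probe, and by -0.88 and -0.19 by its second probe.

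Alad and Urod, cytosolic enzymes that make the pyrrole porphobilinogen and trim the ring to coproporphyrinogen, had the same order of arrays as each other. Scaled values of Alad were -0.30 in tail control, 0.088 in tail treated, -0.86 in back control and -0.074 in back treated skin. Those of Urod were 2.12, 2.88, 1.42 and 2.67. For both genes the tail treated array was the highest and the back control array the lowest. The treated arrays of Alad differed from each other by less than their scanner error, and its control arrays did not.

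In the back Urod was 1.25 higher, a 2.37-fold difference, with 90.8% of genes below it, and all 9 other settings kept it past 2-fold, from 1.19 to 1.35. Scaling to spike-in control probes, which adds -0.42 to every back difference, did not keep Urod past 2-fold. Alad was 0.79 higher there. In the tail Urod was 0.77 higher, but -0.018 with normexp and 0.20 after cyclic loess, while Alad at 0.39 was within 1.96 scanner errors. Uros, which closes the porphyrin ring, was read by a dim probe, with values of -3.36, -2.95, -3.15 and -3.40 in the same order of arrays. Its differences of 0.41 in the tail and -0.25 in the back were small, and the tail value was 2.33 with normexp and 0.051 after cyclic loess.

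The window before Urod is shown because this was the enzyme called higher in the back response. It lies at chr4:116994414-116994663 on the minus strand of GRCm38.p6. Capitals mark an E-box (CACGTG) 49 bases before the start, and, on the other strand, a GC box 28 bases and a CCAAT box 171 bases before it.
Urod: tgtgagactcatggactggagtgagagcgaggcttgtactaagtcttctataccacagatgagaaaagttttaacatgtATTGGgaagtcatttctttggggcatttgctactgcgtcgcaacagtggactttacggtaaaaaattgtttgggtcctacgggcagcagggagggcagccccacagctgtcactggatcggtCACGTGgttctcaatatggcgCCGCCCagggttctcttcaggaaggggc
The E-box letters also stood before Alad, 105 bases from its outer and 28 bases from its inner start, and at the far edge of the window of Uros, against 6.02% of all windows. They overlap the letters ACGTG of the hypoxia element, found in 16.6% of windows, and CCAAT stood in 33.8%. Of the 9 members 8 had a window in the table, and Fech did not.

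Cpox and Ppox, the oxidases of coproporphyrinogen and protoporphyrinogen in mitochondria, were highest on the back treated array and lowest on the tail control array. Scaled values of Cpox were 2.73 in tail control, 3.17 in tail treated, 3.60 in back control and 3.98 in back treated skin. Those of Ppox were -0.97, -0.66, -0.61 and -0.18, where the middle pair differed by less than the scanner error. Cpox differed by 0.44 in the tail and 0.37 in the back, and Ppox by 0.31 and 0.43. None of these reached 2-fold. The tail direction of Cpox turned to -0.46 after cyclic loess and -0.19 with normexp, whereas Ppox was above 0 under all 9 other settings in both skins. With spike-in scaling, given in the closing section, Ppox was below 0 in the tail.

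Fech, the ferrochelatase that inserts iron and so removes protoporphyrin IX, showed the largest difference of any member between untreated skins. The scaled values of its brighter probe were 2.62 in tail control, 2.71 in tail treated, 0.18 in back control and 0.65 in back treated skin, and those of the second probe 1.38, 0.64, -0.94 and -0.84. Both tail arrays lay above both back arrays by either probe. Back control skin was 5.39-fold lower, at -2.43, and at -2.32 with the second probe, and only 2.46% of genes lay below the former. The 8 other settings run for the brighter probe gave -2.41 to -2.78. The response to treatment was small and its probes disagreed in the tail, at 0.091 and -0.73, and the brighter probe was below 0 under 3 of the 8 other settings run for it. In the back they were at 0.47 and 0.10.

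Markers of other cells moved with this difference between untreated skins. On the array were 7 hair shaft and matrix markers, and all 7 were lower in back control than tail control skin, 5 of them as bounds, with a median of -4.25, where 17.2% of all genes were lower. Their summed signal, as multiples of the 75th percentile, was 50.5 in tail control, 372 in tail treated, 3.13 in back control and 1.29 in back treated skin. Saturation capped 5 of them on both tail arrays, so the sums of the tail arrays differ mainly by the 75th percentile and cannot be compared. Of red blood cell and erythroid genes, which include the erythroid synthase Alas2, 7 were on the array and 5 had a value, of which 3 were higher and none lower in back control skin, while Alas2 differed by -0.91. Epb42 was not well above background on any array. Macrophage markers were higher in back control skin in 6 of 6 cases, T cell markers in 4 of 4 and fibroblast markers in 5 of 7, where 27.4% of all genes were higher. The macrophage and fibroblast counts each include 1 bound, and 1 fibroblast marker, Dcn, was lower, at -3.41. Summed signals of the 3 lists were 2.75, 3.31 and 7.53 in back control against 0.39, 0.68 and 5.88 in tail control skin. The part of these cells in the Fech difference was not tested.

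**Figure D2:**
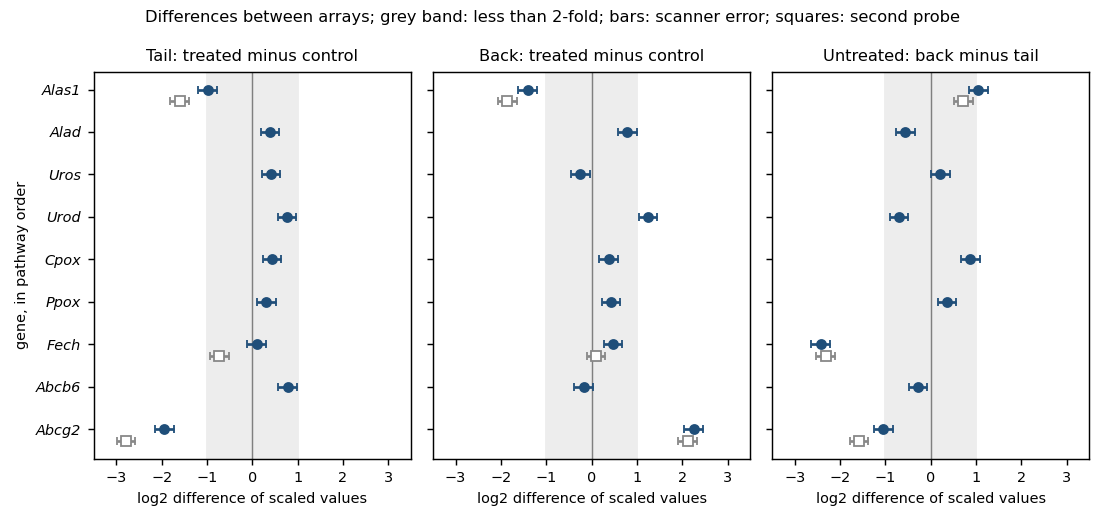
Log2 differences of the 9 genes, in pathway order on the y axis, for treated minus control tail, treated minus control back and untreated back minus untreated tail skin. Circles are the brightest probe, squares the second probe, bars the scanner error of the difference and the grey band less than 2-fold. Alas1 lies left of 0 in both treated panels, Abcg2 changes side between them, and Fech lies far left in the untreated panel.

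The carriers differed from each other. Abcb6, an ATP-driven porphyrin carrier first described in the outer mitochondrial membrane, had scaled values of 0.17 in tail control, 0.94 in tail treated, -0.12 in back control and -0.29 in back treated skin. The tail treated array stood above the others, and the back arrays differed by less than their scanner error. Abcb6 was thus 0.78 higher in the tail, or 1.71-fold, and at -0.18 in the back.

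Abcg2, the pump that exports protoporphyrin IX and is also known as a marker of stem cell side populations, had values of 1.00 in tail control, -0.94 in tail treated, -0.046 in back control and 2.21 in back treated skin. Its second probe gave 0.29, -2.50, -1.30 and 0.82. Both probes placed back treated skin highest, then tail control, back control and tail treated skin. In the tail Abcg2 was 3.84-fold lower by the brighter probe, at -1.94, and 6.92-fold lower by the second, at -2.79. In the back it was 4.76-fold higher, at 2.25, and 4.34-fold higher, at 2.12. Only 1.37% of genes had a lower difference in the tail, and 97.9% had a lower difference in the back. The 8 other settings run for the brighter probe kept its tail value past 2-fold, from -2.04 to -1.47, and its back value between 2.16 and 2.26. With normexp the second probe was at -1.07 in the tail and 2.09 in the back. Back control minus tail control skin was -1.05, and -1.58 with the second probe.

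RefSeq lists 3 starts for Abcg2. The window before the innermost of them is shown because this member had opposite responses, and because it was the GC-rich window of the 3, with 67.6% G and C against 51.2% at the outermost, where all windows had a median of 52.4%. It lies within the annotated gene at chr6:58640296-58640545 on the plus strand of GRCm38.p6, and capitals mark its 4 GC boxes, which lie on both strands.
Abcg2 innermost start: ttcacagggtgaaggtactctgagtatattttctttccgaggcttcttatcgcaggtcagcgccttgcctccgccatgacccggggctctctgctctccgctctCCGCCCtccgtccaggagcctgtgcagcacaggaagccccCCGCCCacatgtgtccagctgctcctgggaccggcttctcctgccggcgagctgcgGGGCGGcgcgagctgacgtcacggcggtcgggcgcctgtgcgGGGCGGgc
None of the other letters searched stood in the 3 windows. These were the sites of NRF1, AP-1 (TGANTCA), the antioxidant response element (TGACNNNGC, found in 10.2% of windows), the E-box, the dioxin and hypoxia elements, GATA, TATA and CCAAT. No match says only that these letters are not in these windows.

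Among markers of cells known to carry Abcg2, endothelial genes were higher in treated tail skin in 7 of 9 cases and lower in none, the opposite direction to Abcg2. Of all genes, 27.2% were higher there and 6.55% lower. The endothelial direction in the tail depends on scaling. Its median was 1.71, and spike-in scaling, which adds -1.94 to every tail difference, puts that median below 0, the same side as Abcg2. Other lists were also mostly higher in the tail, as 6 of 8 skeletal muscle and 5 of 7 sebocyte markers, while 1 of 4 pericyte markers was higher and 1 lower. The brightest endothelial signal on the tail control array was 700 (Flt1), far below its 75th percentile of 7261. In the back 4 of 10 endothelial genes were higher and 1 lower, against 13.6% and 12.6% of all genes. The summed endothelial signal was 0.27 in tail control, 0.85 in tail treated, 1.01 in back control and 0.89 in back treated skin, with Tek not well above background on any array. Of 7 basal keratinocyte markers only the integrin Itga6 could be measured in the tail, since the others were saturated, and it differed by -2.05 there and by 1.69 in the back, the same directions as Abcg2. The part of either cell type in the Abcg2 values was not tested.

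By a fixed rule, the genes most like Abcg2 were sought among 7254 others measured on all 4 arrays with signals of at least 200. Likeness was the Euclidean distance between the 4 values after centring, which had a median of 2.59. The nearest were Itga6 at 0.42, Ggta1 at 0.46, Lamb3 at 0.61, Plek2 at 0.72 and Ehbp1 at 0.73, and 20 genes lay within 1. For Alas1 the nearest were Znrf2 at 0.12, Dusp8 at 0.14, Pak3 at 0.16, Spata2 at 0.16 and Cdyl at 0.20, and 673 genes lay within 1. More genes thus lay within that distance of Alas1 than of Abcg2. With 4 arrays these distances are a description.

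**Figure D3:**
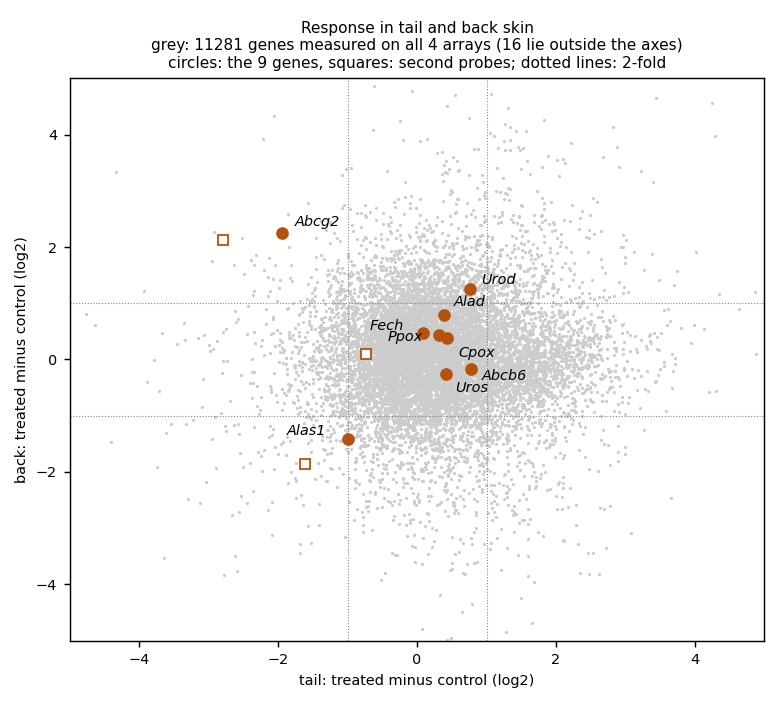
Treated minus control differences on the log2 scale, with the tail on the x axis and the back on the y axis. Grey points are the 11281 genes measured on all 4 arrays, of which 16 lie outside the axes, filled circles are the 9 genes, squares their second probes, and dotted lines mark 2-fold. Abcg2 lies alone among the members at the upper left and Alas1 at the lower left.

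Counted over the 9 members, 1 was called lower in the tail (Abcg2) and none higher, where 6.55% of 12858 genes with a value were lower and 27.2% higher. The members had a median of 0.39 and all genes one of 0.33. The tail background depended on scaling, with 3496 genes higher and 842 lower as given here but 1936 and 1650 after cyclic loess, 2110 and 1543 after quantile normalization and 5739 and 534 with normexp. In the back 2 members were higher (Urod and Abcg2) and 1 lower (Alas1), against 13.6% of genes higher and 12.6% lower. The median over members was 0.43 there and that of all genes -0.011. A pair of 2-fold calls in opposite directions, lower in the tail and higher in the back as for Abcg2, occurred in 0.984% of the 11281 genes measured on all arrays.

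The 6 enzymes after Alas1 were above 0 in the tail in 6 of 6 cases by their brightest probe, with a median of 0.40, where 63.8% of all genes were above 0. The second Fech probe was below 0 there, Cpox and Fech were below 0 after cyclic loess, Urod, Cpox and Fech with normexp, and Fech after quantile normalization. In the back 5 of 6 were above 0, against 49.3% of all genes, with a median of 0.45, and each of these 5 was above 0 under all 9 other settings. Alad, Urod, Cpox, Ppox and Fech were above 0 in both responses, which held for 32.6% of all genes. Alad, Ppox and Fech in the tail, and Uros, Cpox and Abcb6 in the back, lay within 1.96 scanner errors of 0, the 95% range of that error. Spike-in scaling is not among the 9 settings and adds -1.94 in the tail and -0.42 in the back. It puts all 6 enzymes below 0 in the tail and Cpox below 0 in the back.

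**Figure D4:**
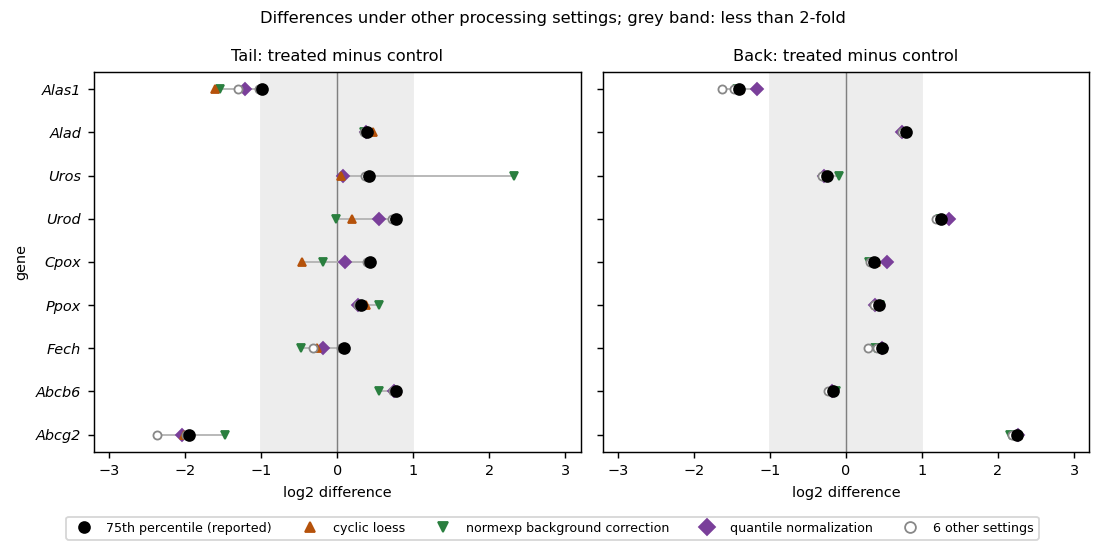
Treated minus control differences of the 9 genes in the tail (left) and back (right) on the log2 scale as reported (black circle) and under 9 other processing settings. Named markers are cyclic loess, normexp background correction and quantile normalization, and the grey band is less than 2-fold. The points spread more in the tail, where Uros reaches 2.33 with normexp, than in the back.

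Between untreated skins, 1 member was called higher in back than tail (Alas1, by 1.05) and 2 lower (Fech and Abcg2), where 27.4% of 12793 genes were higher and 17.2% lower. The split over all genes was 3507 higher and 2203 lower, but 2625 and 2846 after cyclic loess, 2590 and 2880 after quantile normalization and 4141 and 1730 with normexp. The Alas1 call did not hold with its second probe, at 0.72, after cyclic loess, at 0.45, or with spike-in scaling, which adds -1.05. Cpox differed by 0.87, and by 0.028 after cyclic loess. Urod was at -0.70, but at -1.25 and so called lower after cyclic loess, and Alad was at -0.56, while Uros, Ppox and Abcb6 were within 1.96 scanner errors. This comparison shares both control arrays with the responses above.

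The responses of the skins were set against each other over the 9 genes, which share no array between tail and back. The back response minus the tail response had a median of 0.12 over members and -0.20 over all genes measured on all 4 arrays. Abcg2 had the highest value, 4.19, or 4.91 with its second probe, whose tail value is smaller with normexp as given above, and 99.8% of genes lay below it. The lowest member was Abcb6 at -0.95. The other 7 lay from -0.66 for Uros to 0.48 for Urod. Spike-in scaling adds -1.94 in the tail and -0.42 in the back, so it raises all of these differences by the same amount.

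A list of 30 neighbouring genes was read for context, comprising mitochondrial carriers, heme and porphyrin carriers, aminolevulinate transporters and regulators, of which 29 were on the array. In the tail 8 of 25 with a value were higher and 1 lower, and in the back 3 of 29 were higher and 4 lower. Over all genes 27.2% were higher and 6.55% lower in the tail, and 13.6% and 12.6% in the back, so the share of higher calls in the tail was near that of all genes. The tail counts were 5 and 3 after cyclic loess, and in the back they were 3 and 4. Medians were 0.31 in the tail and 0.12 in the back, against 0.33 and -0.011 for all genes. The highest tail value of a neighbour was 2.26. Spike-in scaling adds -1.94 to every tail difference, so it leaves no neighbour called higher there.

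Of 5 listed genes of aminolevulinate uptake, the tail had a value for 4, with 2 called higher and none lower, where 27.2% of all genes were higher, and the back had 2 of 5 lower and none higher, where 12.6% were lower. Slc15a1, the peptide transporter PEPT1, which also carries aminolevulinate, had scaled values of 1.69 in tail control, 3.54 in tail treated, 4.27 in back control and 2.69 in back treated skin. It was thus 1.85 higher in the tail and at -1.57 in the back, opposite to Abcg2, and the tail value was 1.05 after cyclic loess. The transporter Slc6a13 was 2.07 higher in treated tail skin, with 1.85 by its second probe, and the amino acid transporter Slc36a1 was at -1.58 in the back. Slc15a2, the relative PEPT2, differed by -0.77 in the tail and -0.76 in the back by its brighter probe, while its dim second probe gave 1.61 and -0.41. Slc6a6 was saturated on the tail control array by its brighter probe, and its second probe gave -1.06 in the tail.

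Of heme carriers, the exporter Flvcr1 was 4.95-fold lower in the tail, at -2.31, with values of 1.73 in control and -0.58 in treated tail skin, and 4.06 and 3.59 in the back. Its relative Flvcr2 was 2.14-fold higher in the tail and at -1.44 in the back, and the tail log2 value was 0.49 after cyclic loess. Calls of opposite sign as for Slc15a1 and Flvcr2, higher in the tail and lower in the back, occurred in 2.57% of genes measured on all arrays. The heme-binding protein Hebp1 was 1.41 higher in the tail, or 0.94 with normexp, and 1.19 higher in the back. Mitoferrin 1 (Slc25a37), which brings iron to ferrochelatase, was 1.16 and 1.32 higher, but 0.60 in the tail after cyclic loess and 0.53 by its second probe. The outer membrane protein Tspo, known to bind porphyrins, was 1.20 higher in the back. In the tail the erythroid synthase Alas2 was 1.57 higher and the coactivator Ppargc1a 2.26 higher. Spike-in scaling, which adds -1.94 in the tail, puts Alas2 below 0 and takes Ppargc1a out of the higher calls. The signal of Ppargc1a was only 43.2 on the tail control and 25.8 on the tail treated array, and its tail value ran from 1.50 to 5.04 over the other settings. Beside Alas2, 3 of the 4 other red blood cell and erythroid genes with a value were higher in the tail, where 27.2% of all genes were higher. Their part in the Alas2 value was not tested.

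**Figure D5:**
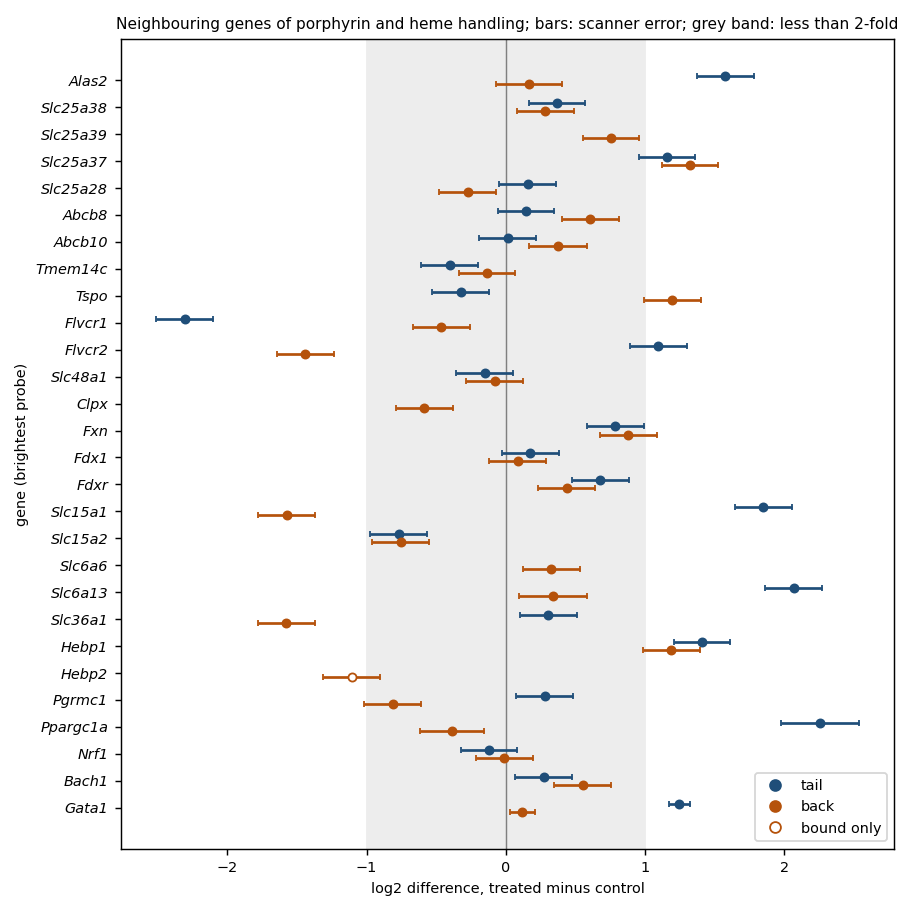
Treated minus control differences of 28 neighbouring genes on the log2 scale, for tail (blue) and back (orange), by the brightest probe. Bars are the scanner error, an open circle is a bound, a missing point is a gene saturated on the tail control array without a usable bound, and the grey band is less than 2-fold. Slc15a1 and Flvcr2 lie right in the tail and left in the back.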

How the data were processed

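Tail and back skin RNA, 200 ng per sample per the labels' protocols, was labelled with Cy3 and hybridised to 4 arrays of 1 slide, 1 per group, and position on the slide and group cannot be told apart. The deposited scanner output gives a background-corrected intensity per spot with outlier and saturation flags, not yet normalized across arrays. Its software was Feature Extraction 10.5.1.1 per the file headers, but 10.7 per the submitters' processing notes. The deposited value table is on a log2 scale centred per probe over the arrays. Its differences matched those of the log2 processed signal plus a constant within 0.01 for at least 99.98% of probes, so scale and direction were settled, and how the constant was set is not given in the sources used here. Its column medians were -0.28, 0.099, -0.031 and 0.084 for the control and treated tail and then the control and treated back.

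Outlier spots were left out, saturated spots kept and repeated spots averaged on the log2 scale. Of 41174 probes, 24375 (59.2%) had an accession that gave 1 symbol in the RefSeq gene table of GRCm38.p6. The file headers name mm8, so coordinates are those of the RefSeq promoter table only. The brightest probe stood for a gene and all member probes are given. A gene dim or saturated on 1 of 2 arrays gave a bound in the stated direction, and one dim or saturated on both gave no value. The number of arrays limits the precision. Named genes were all 9 members, up to 6 called neighbours per response by size (others named are stated for context) and the 5 genes nearest to Abcg2 and to Alas1. The members, lists and motif letters were chosen with earlier results of these data known. The code that makes the calls was tested on simulated data, with set changes well past 2-fold and no dim or saturated spots. That says nothing about calls near 2-fold, shifts that depend on brightness or the spread between animals. Python 3.11.15, R 4.3.3 and limma 3.58.1 were used. Values of 2 listed genes are not reported here. The alternatives are given in the closing section.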

Additional observations from a re-analysis of the deposited data

Results flagged for a closer look

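Abcg2 had 2-fold differences of opposite sign in the skins, and its back response minus tail response was 4.19. As scaled here, the same held for the peptide transporter Slc15a1, at -3.42, and the heme carrier Flvcr2, at -2.53. After cyclic loess the tail value of Flvcr2 was 0.49 and so inside 2-fold. Spike-in scaling, which adds -1.94 in the tail, puts the tail values of Slc15a1 (1.85) and Flvcr2 (1.095) below 0. Abcg2 keeps its calls under both. With 1 array per group the difference between the skins was not tested for any of these genes. Calls of opposite sign, higher in the tail and lower in the back as for the latter pair, occurred in 2.57% of genes measured on all 4 arrays.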

How the results depend on the processing

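The 9 alternatives were normexp (offset 50) in place of the scanner's background correction, quantile normalization, cyclic loess, centring on the median of detected probes, no filter on dim or saturated spots, a signal of at least 200, outlier spots kept, the mean of a gene's probes and the deposited value table. For the neighbouring list they were chosen after seeing the data. The counts of members called in the back, 2 higher and 1 lower, were the same under all 9. Spike-in scaling, given below, is not among the 9 and takes Urod out of the higher calls in the back. In the tail 1 member was higher with normexp, and 2 were lower with normexp, quantile normalization, cyclic loess, median centring and the mean of probes, because Alas1 passed 2-fold. The tail median over members was -0.018 with normexp. Between untreated skins 0 members were higher with normexp, quantile normalization, cyclic loess and the mean of probes, and 3 in place of 2 were lower after cyclic loess. Spike-in scaling moves every difference alike, with shifts of -1.94 for the tail, -0.42 for the back and -1.05 for untreated skins, which put the medians over members at -1.55, 0.012 and -1.33. Its tail shift puts all 9 members past 2-fold lower, and its untreated shift removes the Alas1 call. The median of all genes in the tail was 0.33, and 0.63 with normexp, 0.024 after quantile normalization and -0.072 after cyclic loess, a brightness-dependent shift of the same size as most tail differences of the enzymes. The median difference of responses ran from 0.11 to 0.42 under the 9 alternatives. Spike-in scaling raises it beyond this range, because its shifts differ between tail (-1.94) and back (-0.42). Of 312 member values under alternatives, 295 moved by less than 1.96 scanner errors, 17 moved further and none of the 2-fold calls changed sign. Several alternatives could hardly move these values. Leaving out the filter changed no member value, a signal of at least 200 could only drop values, and the deposited table holds the same signal plus a constant. The count of 295 is therefore no measure of robustness. The tail value of Cpox, Fech and Urod did not keep its sign under all 9 alternatives, and spike-in scaling put every member below 0 in the tail. The tail counts of neighbours ran from 5 to 10 higher and 1 to 3 lower under the 9 alternatives. With spike-in scaling no neighbour stays called higher in the tail. No paired analysis was possible because each group has 1 array and the labels give no replicate numbers.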

Other observations

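Neighbouring genes also differed between untreated skins, a comparison without treatment. Of 26 with a value, 7 were higher and 11 lower in back control than in tail control skin, with a median of -0.73 against 0.19 for all genes, of which 27.4% were higher and 17.2% lower. Among the mitochondrial carriers and genes of iron supply 5 of 8 were lower and 1 higher, with a median of -1.08. They included Abcb10, a partner of mitoferrin 1, at -1.45, the glycine carrier Slc25a38 at -1.14 and mitoferrin 1 at -1.06, the same side as Fech, while mitoferrin 2 (Slc25a28) was 1.04 higher. The transporter Slc6a13 differed by -3.34 and by -2.49 with its second probe, whereas Flvcr2, Slc15a1 and Flvcr1 were 2.68, 2.58 and 2.33 higher. Abcb10, Slc25a38 and Slc25a28 were picked for mention after their values were seen.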
